A study of Mus musculus with 11 samples.

Results

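The comparison set the hippocampus of mice taken off levetiracetam (PT 2 m withdrawal, 2 libraries) against that of mice on the drug (PT 1 m LEV, 2 libraries), each side of the brain against the same side, in 4 of the 11 libraries of the series. CAGE, cap analysis of gene expression, reads transcripts from their capped 5′ ends, and was run on whole hippocampus of C57BL/6N male mice. All 4 came from mice with photothrombosis (PT), a stroke model. The left parietal cortex was lit through a 3.5 mm circle with 565 nm light for 30 minutes after rose bengal (35 mg/kg), a dye that makes lit vessels clot. Levetiracetam (LEV) was offered for 2 weeks at 5 mg/mL in drinking water. The withdrawal group was labelled as 2 m after PT with the drug stopped for 2 weeks, whereas the series text gives 1 week. The PT 1 m LEV group was labelled as 1 m after PT on the drug. The PT 1 m group, mice at the same time without the drug (2 libraries), served to find the genes that stood apart with LEV. The PT 7 d LEV, PT 7 d and naive libraries (5 in all) are described beside them. Each PT condition had 1 library per side, infarcted and non-infarcted. How many animals a library held, whether the sides shared animals, and whether a group was 8 to 10 or 65 to 85 weeks old, ages that the series text names, are unknown from the sources used here. By that text LEV began 1 month past PT, so the time on drug of the groups labelled 7 d and 1 m is not given either.

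Levetiracetam is an anti-seizure drug that binds SV2A, a glycoprotein of synaptic vesicles, and dampens transmitter release during intense firing. The hippocampus holds the glutamatergic granule and pyramidal neurons of the dentate gyrus and the CA fields, with interneurons and glia around them, and the choroid plexus of the ventricles lies along its edge. Genes that respond to a drug can return after it is stopped, stay where the drug left them, or be overlaid by changes that come with time or with how the libraries were made. With 1 library for each condition and side, the spread between mice was not measured, and fits that use the 2 sides as replicates come last. A gene is called past the fold below when log2(CPM + 1) was apart by 1 or more, with the same sign on both sides, among 16057 genes with a mean of at least 1 CPM. CPM is a gene's reads scaled to the total of its library, and every difference below is on the log2(CPM + 1) scale, which understates the change of low genes.

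Library totals ranged from 13382623 to 22377376 reads, the highest in PT 1 m LEV on the non-infarcted side, and 93.01% to 96.08% of reads fell in listed genes. A count of 0 allows up to 3 reads, or 0.134 to 0.224 CPM, for counting error only. Among the 477 genes past the fold at withdrawal, the larger counting error of the 2 sides had a median of 0.10 and a maximum of 0.23. The gap between their 2 sides had a median of 0.17 and a maximum of 2.71, and over all tested genes a median of 0.18. The 7 markers of hippocampal neurons, none at 0 in any library, summed to 453.8 to 592.5 CPM over the 11 libraries. The 7 choroid plexus markers, none at 0, summed to 4011 and 1259 CPM at withdrawal (infarcted, then non-infarcted side, the order used throughout) and to 1778 and 102.6 CPM in PT 1 m LEV. They summed to 55.74 and 1428 CPM in PT 1 m, and to 3146 to 4804 CPM in the 5 other libraries. The libraries of PT 1 m on the infarcted side and of PT 1 m LEV on the non-infarcted side thus stood apart as low in choroid plexus RNA. In whole tissue, fewer cells of a type and less RNA per cell cannot be told apart.

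At withdrawal, 477 genes stood past the fold against PT 1 m LEV (2.97% of the genes tested). Of these, 192 were higher (1.2%) and 285 lower (1.77%). Against this, only 39 genes were past the fold between PT 1 m LEV and PT 1 m (0.243%), with 33 higher (0.206%) and 6 lower (0.0374%). Between PT 2 m withdrawal and PT 1 m, 89 genes were past the fold (0.554%), with 35 higher (0.218%) and 54 lower (0.336%). Between PT 7 d LEV and PT 7 d there were 3 (0.0187%), 1 higher (0.00623%) and 2 lower (0.0125%). The median over all tested genes was 0.13 and 0.09 at withdrawal and -0.06 and -0.02 with LEV. TMM scaling brought the withdrawal median to 0.00 and -0.02, and then gave 111 higher and 403 lower genes, so that 21.6% of the calls were higher in place of 40.3%. The withdrawal and LEV differences share the PT 1 m LEV libraries, with opposite sign. Of the 10 PT libraries, those of PT 1 m LEV stood apart most on the high side. In 98 genes both PT 1 m LEV libraries were at least 1 above the median of the other 9 libraries, against 14 for PT 1 m, 20 for PT 7 d, 24 for PT 7 d LEV and 27 for withdrawal. On the low side, withdrawal had most such genes, with 65, against 25 for PT 1 m LEV, 26 for PT 1 m, and 9 each for PT 7 d and PT 7 d LEV.

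**Figure D1:**
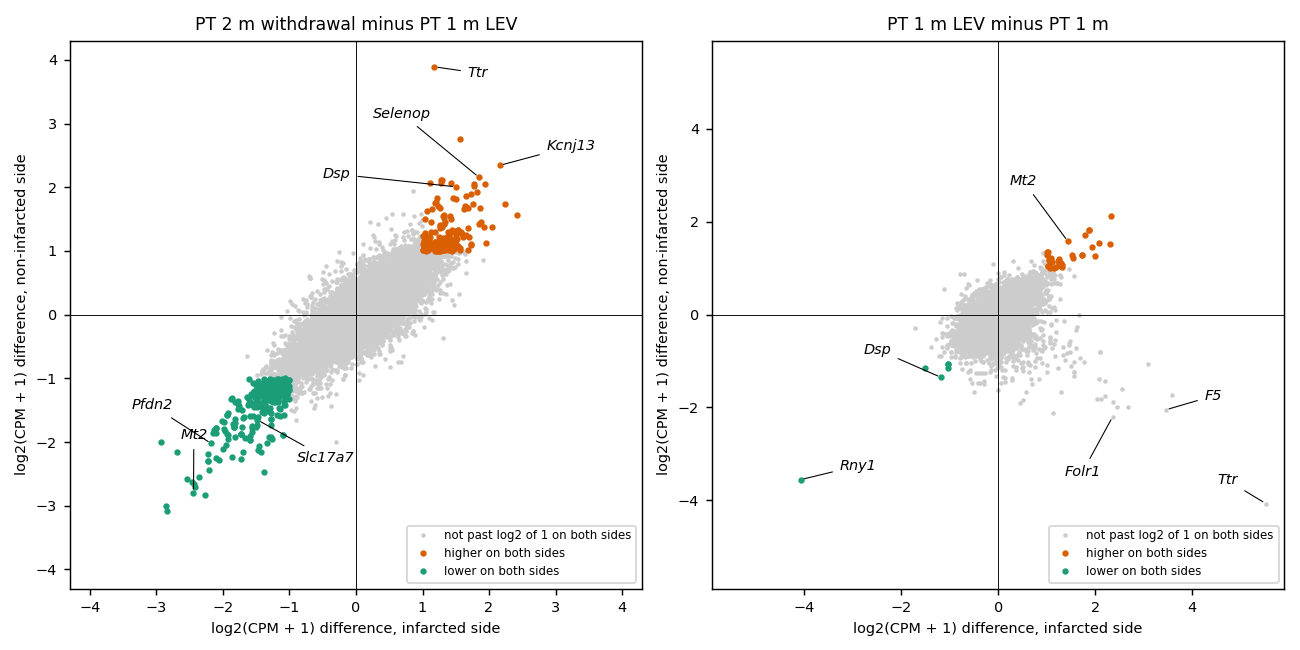
Difference of each tested gene on the infarcted side (horizontal) and the non-infarcted side (vertical), in log2(CPM + 1), for PT 2 m withdrawal minus PT 1 m LEV (left) and PT 1 m LEV minus PT 1 m (right). Coloured points are past a log2 of 1 on both sides: 192 higher and 285 lower at withdrawal, 33 higher and 6 lower with LEV. Ttr, Folr1 and F5 of the choroid plexus lie at the lower right in the LEV panel, higher on 1 side and lower on the other.

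Most genes that were higher with LEV at 1 m stood lower again after withdrawal. Of the 33 genes past the fold upward with LEV, 25 were past the fold downward at withdrawal on both sides, as were 285 of all tested genes (1.77%). Since the PT 1 m LEV libraries enter both differences, a gene chosen for high values in them tends to be lower in the other difference, and this count alone does not measure a return. Measured against PT 1 m instead, the withdrawal libraries of 8 of the 25 lay within 0.5 of PT 1 m on both sides, and 19 lay within 1. Of all tested genes, 69.0% lay within 0.5 and 95.9% within 1, so fewer of these genes than of all genes were near PT 1 m. The 25 were also chosen for low values in PT 1 m. In 3 of the 25 the withdrawal libraries were past the fold below PT 1 m: Mt2, H4c9 and a predicted gene. In 28 of the 33 both PT 1 m LEV libraries exceeded all other 9 libraries, beside 10.0% of all tested genes, and these libraries also chose the 33. At 7 d, 0 of the 33 were past the fold upward with LEV, beside 0.00623% of all tested genes, so this count is no trait of the 33. Of the 33, 22 differed by less than 0.5 on both sides at 7 d, a share not counted over all tested genes.

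A count across sides shares no library between the 2 differences, though the sides may share animals. Whether the 2 PT 1 m LEV libraries share a preparation is unknown too. This count cannot tell such sharing from a difference that came with LEV. Of 120 genes higher by at least 1 with LEV on the infarcted side, 44 (36.7%) were lower by at least 1 at withdrawal on the non-infarcted side, as were 2.3% of all tested genes there. Of 44 genes higher with LEV on the non-infarcted side, 33 (75.0%) were lower at withdrawal on the infarcted side, against 3.2% of all tested genes. For genes lower with LEV the counts were 7 of 28 (25.0%, against 1.85%) and 47 of 101 (46.5%, against 3.88%). Of the 120, another 19 were higher still at withdrawal on the non-infarcted side. These 120 were chosen against the PT 1 m infarcted library and the 101 with the PT 1 m LEV non-infarcted library, the 2 that were low in choroid plexus RNA, and the part of that RNA in these shares was not tested.

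**Figure D2:**
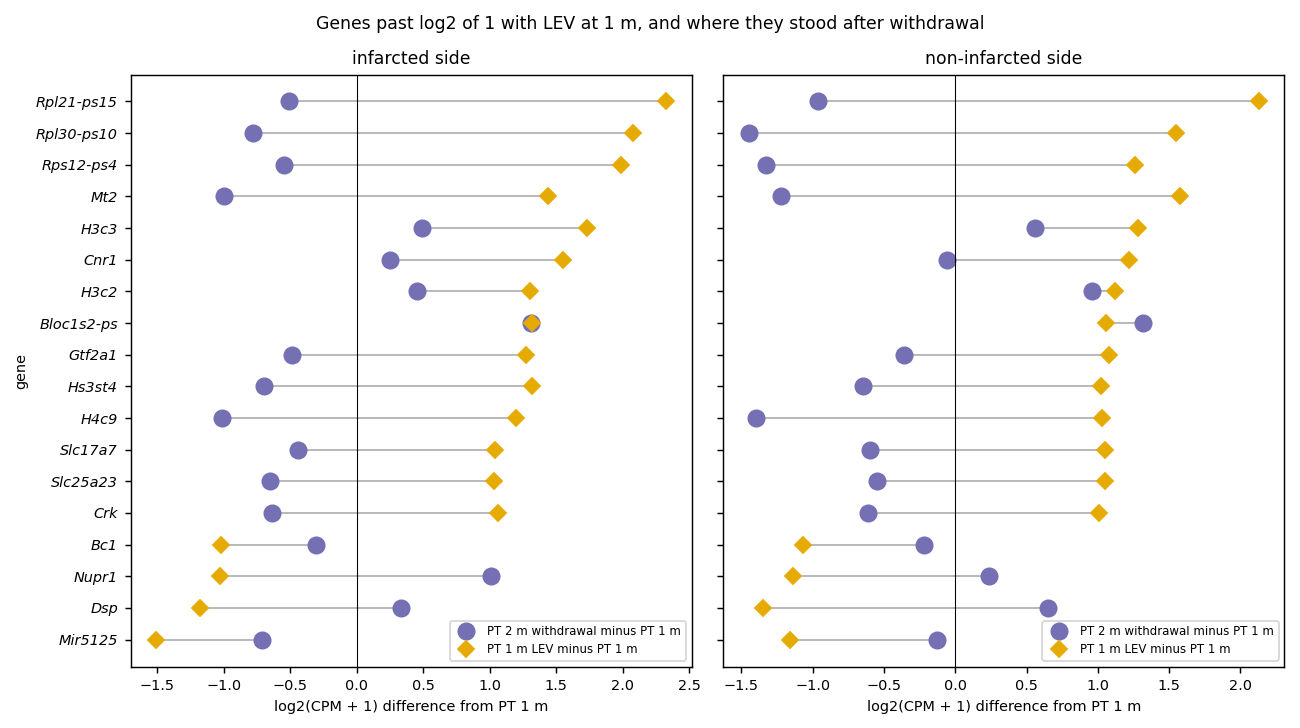
Difference from PT 1 m, in log2(CPM + 1), of named genes past the fold with LEV at 1 m: circles are PT 2 m withdrawal minus PT 1 m, diamonds PT 1 m LEV minus PT 1 m, on the infarcted (left) and non-infarcted side (right). For Cnr1 the circles lie at 0.25 and -0.06 and the diamonds at 1.55 and 1.22, whereas for Mt2 the circles lie at -1.0 and -1.22. The circles of Bloc1s2-ps lie by its diamonds.

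A vesicular glutamate transporter and a mitochondrial carrier were among the genes that stood lower again. Slc17a7 encodes VGLUT1, the transporter that loads glutamate into synaptic vesicles (GRCm38 chromosome 7, 45163949 to 45176142). It stood at 575 and 509 CPM at withdrawal, 1606 and 1603 CPM in PT 1 m LEV and 781 and 771 CPM in PT 1 m. In the 4 libraries at 7 d it stood at 498 to 692 CPM and in naive at 936 CPM, so the PT 1 m LEV libraries were the highest of all 11. Slc17a7 was chosen for PT 1 m LEV values above PT 1 m and withdrawal, so its gap to those 2 groups follows from the choice. Its difference was -1.48 and -1.65 at withdrawal (counting error 0.02 each) and 1.04 and 1.05 with LEV, and withdrawal lay at -0.44 and -0.60 from PT 1 m. Slc25a23, a calcium-regulated ATP carrier of the inner mitochondrial membrane, stood at 116 and 116 CPM at withdrawal, 373 and 355 CPM in PT 1 m LEV and 182 and 170.4 CPM in PT 1 m. Its withdrawal values lay below PT 1 m by less than the fold, at -0.65 and -0.55. Under quantile normalization, Slc17a7 and Slc25a23 no longer reached the fold with LEV.

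Cnr1, the CB1 cannabinoid receptor of presynaptic terminals, came back near its PT 1 m level on both sides (chromosome 4, 33924593 to 33948831). It stood at 116 and 109 CPM at withdrawal, 288 and 265 CPM in PT 1 m LEV and 97.7 and 113 CPM in PT 1 m. The 4 libraries at 7 d held 98.9 to 116 CPM and naive 69.3 CPM. Withdrawal, PT 1 m and 7 d values thus overlapped, and the PT 1 m LEV pair stood more than 2-fold above them on both sides. Cnr1 was chosen for PT 1 m LEV values above PT 1 m and withdrawal, so its gap to those 2 groups follows from the choice. Its difference was -1.31 and -1.28 at withdrawal and 1.55 and 1.22 with LEV.

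Other genes that stood lower again had roles in transcription, signalling and the cell surface. Gtf2a1, a subunit of the general transcription factor TFIIA, stood at 33.7 and 36.3 CPM at withdrawal, 116 and 99.8 CPM in PT 1 m LEV and 47.8 and 46.8 CPM in PT 1 m. Crk, an adaptor of tyrosine kinase signalling, stood at 42.9 and 42.0 CPM at withdrawal, 142 and 131 CPM in PT 1 m LEV and 67.3 and 64.5 CPM in PT 1 m. Hs3st4, which sulfates heparan sulfate chains, stood at 33.0 and 36.6 CPM at withdrawal, 137 and 119 CPM in PT 1 m LEV and 54.3 and 58.0 CPM in PT 1 m. These 3 genes were chosen for PT 1 m LEV values above the other 2 groups on each side, so that gap follows from the choice. Withdrawal was the lowest of the 3 groups. At 7 d Gtf2a1 stood at 31.3 to 34.0 CPM, overlapping withdrawal. Crk stood at 53.4 to 70.9 CPM and Hs3st4 at 37.5 to 44.1 CPM at 7 d, above withdrawal. Under quantile normalization Crk and Hs3st4 missed the fold with LEV on the non-infarcted side (0.97 and 0.98).

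The metallothioneins Mt1, Mt2 and Mt3 are small cysteine-rich proteins that bind zinc and copper. Mt1 and Mt2 are switched on by metals through the factor MTF1 at metal response elements and by glucocorticoids, and Mt3 is mostly found in the brain. All 3 genes were past the fold downward at withdrawal. Their promoters, 250 bases before to 50 after the start in RefSeq (GRCm38.p6, plus strand), are shown because these neighbouring genes of chromosome 8 moved together. Capitals mark matches to the core of the metal response element (TGCACNC or TGCGCNC, either strand). They lie at chr8:94178839-94179138 for Mt1, chr8:94172368-94172667 for Mt2 and chr8:94152357-94152656 for Mt3.
Mt1: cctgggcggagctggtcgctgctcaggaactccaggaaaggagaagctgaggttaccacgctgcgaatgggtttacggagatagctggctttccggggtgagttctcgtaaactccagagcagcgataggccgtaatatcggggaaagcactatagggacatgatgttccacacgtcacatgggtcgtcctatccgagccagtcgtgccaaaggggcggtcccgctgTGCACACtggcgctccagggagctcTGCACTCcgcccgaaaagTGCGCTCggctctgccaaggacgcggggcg
Mt2: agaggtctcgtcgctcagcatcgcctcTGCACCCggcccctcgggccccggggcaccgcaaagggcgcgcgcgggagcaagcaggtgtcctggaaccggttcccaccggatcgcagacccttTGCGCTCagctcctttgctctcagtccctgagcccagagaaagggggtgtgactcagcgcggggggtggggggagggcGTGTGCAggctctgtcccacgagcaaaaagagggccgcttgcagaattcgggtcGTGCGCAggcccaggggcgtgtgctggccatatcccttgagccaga
Mt3: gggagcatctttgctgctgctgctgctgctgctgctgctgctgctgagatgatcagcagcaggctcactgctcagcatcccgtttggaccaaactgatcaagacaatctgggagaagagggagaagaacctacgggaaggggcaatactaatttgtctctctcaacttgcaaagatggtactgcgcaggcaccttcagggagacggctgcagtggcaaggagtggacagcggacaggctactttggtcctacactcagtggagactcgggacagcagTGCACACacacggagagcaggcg
The Mt1 window held 3 matches, the Mt2 window 4 and the Mt3 window 1, and 25.7% of 32851 promoters of this length held at least 1. A match is a stretch of letters and was not tested for binding.

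Mt2 stood at 185 and 128 CPM at withdrawal, 1007 and 897 CPM in PT 1 m LEV and 371 and 300.2 CPM in PT 1 m. The 4 libraries at 7 d held 335 to 539 CPM and naive 326 CPM. The PT 1 m LEV pair was thus the highest and the withdrawal pair the lowest of the 11 libraries. Mt2 was chosen for PT 1 m LEV values above PT 1 m and withdrawal, so its gap to those 2 groups follows from the choice. Its difference was -2.44 and -2.79 at withdrawal (counting error 0.03 each), 1.44 and 1.58 with LEV, and -1.0 and -1.22 between withdrawal and PT 1 m. Mt1 stood at 611 and 580 CPM at withdrawal, 1618 and 1502 CPM in PT 1 m LEV and 782 and 777 CPM in PT 1 m. It was below the fold with LEV on the non-infarcted side (1.05 and 0.95) and past it at withdrawal (-1.40 and -1.37). Mt3 stood at 790 and 701 CPM at withdrawal, 2783 and 2672 CPM in PT 1 m LEV and 1754 and 1682 CPM in PT 1 m. Its difference was -1.82 and -1.93 at withdrawal and 0.67 with LEV on both sides, with withdrawal past the fold below PT 1 m (-1.15 and -1.26). Of the 17 tested genes in the list of glucocorticoid-induced and metallothionein genes, these 3 were past the fold at withdrawal, all lower. Of all tested genes 1.77% were lower, and the list's median was -0.31 and -0.10. The glucocorticoid-induced genes Fkbp5 and Sgk1 differed by -0.46 and -0.37, and by 0.15 and -0.09. Of the 17, 5 were above 0 at withdrawal on both sides and 8 below 0, the 3 metallothioneins among the latter. Fkbp5 and Sgk1 thus do not stand for the list.

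**Figure D3:**
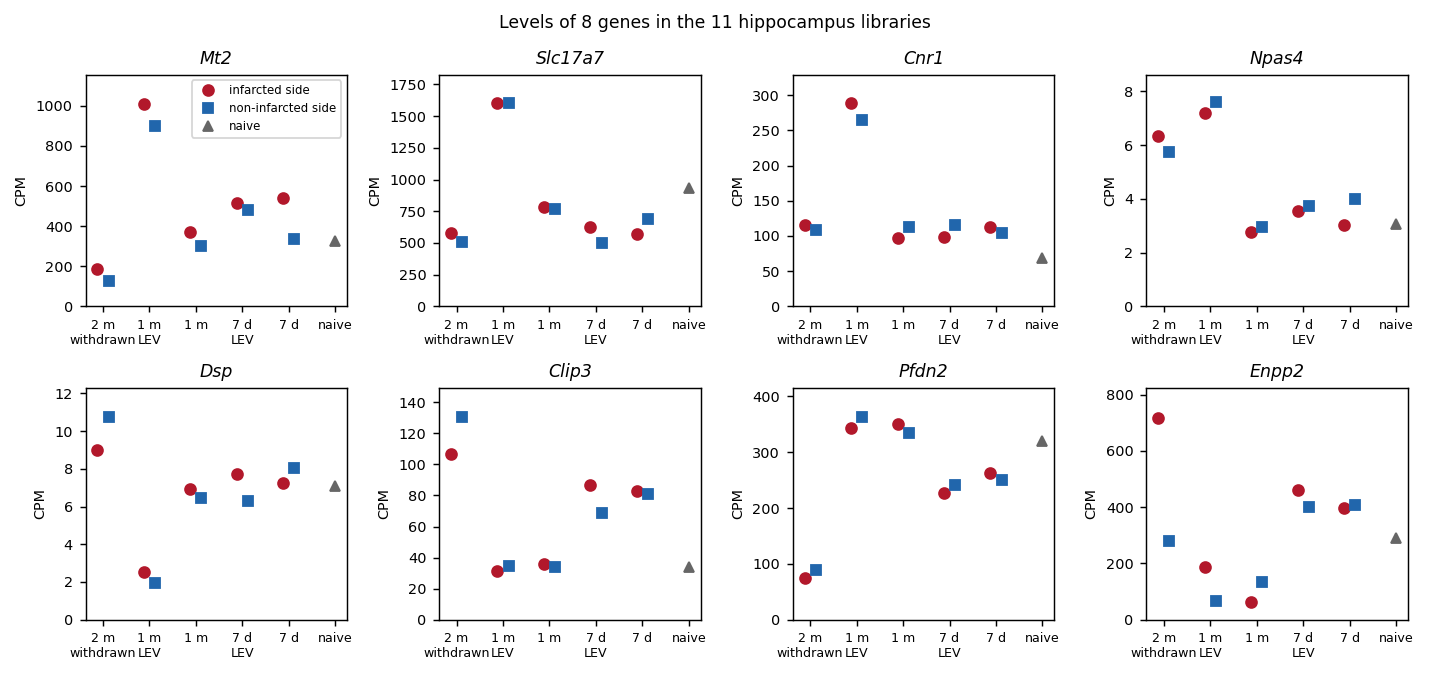
CPM of 8 genes in each of the 11 libraries, with 1 point per library (circle infarcted side, square non-infarcted side, triangle naive). Mt2, Slc17a7 and Cnr1, chosen for high PT 1 m LEV values, are highest in the 2 PT 1 m LEV libraries. Npas4 is high at withdrawal and in PT 1 m LEV, Dsp is low in PT 1 m LEV, Clip3 and Pfdn2 set withdrawal apart from the 4 libraries at 1 m, and Enpp2 of the choroid plexus differs between the sides at withdrawal and at 1 m.

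A few genes that were higher with LEV were still high after withdrawal. Of the 33, 8 did not go back past the fold, and 2 of these stayed within 0.5 of PT 1 m LEV on both sides: Npas4 and the pseudogene Bloc1s2-ps. Npas4, a transcription factor switched on by calcium entry in active neurons, stood at 6.32 and 5.75 CPM at withdrawal, 7.18 and 7.60 CPM in PT 1 m LEV and 2.77 and 2.94 CPM in PT 1 m. The 4 libraries at 7 d held 3.03 to 3.99 CPM and naive 3.07 CPM, so the withdrawal and PT 1 m LEV pairs were the 4 highest libraries. Its difference was -0.16 and -0.35 at withdrawal and 1.12 and 1.13 with LEV, at low counts. Fos, another activity-induced factor, had 4.91 and 4.69 CPM at withdrawal and 5.10 and 5.50 CPM in PT 1 m LEV. In PT 1 m Fos had 3.21 and 3.09 CPM, a difference under the fold. The 4 libraries at 7 d held 4.05 to 6.06 CPM of Fos, overlapping withdrawal and PT 1 m LEV. Fosb differed by -1.14 and -0.98 at withdrawal. Of the 23 immediate early genes, 8 were above 0 at withdrawal on both sides and 11 below 0. With LEV 18 were above 0 on both sides and 3 below, with a median of 0.39 and 0.35. Between withdrawal and PT 1 m 14 were above 0 and 6 below, with a median of 0.23 and 0.22. Shares of all tested genes by sign are not given here. Bloc1s2-ps stood at 6.65 and 7.59 CPM at withdrawal, 6.73 and 6.17 CPM in PT 1 m LEV and 2.09 and 2.44 CPM in PT 1 m. It was high at 7 d as well, at 9.16 to 10.1 CPM, and low in naive at 2.07 CPM. The other 6 lay in between: the histone genes H3c2, H2ac10 and H3c3, the pseudogene H2ac5-ps, which has the same reads as H3c3, the pseudogene Pgk1-rs7 and 1 predicted gene. H3c2 had its highest value in PT 7 d on the infarcted side, at 26.1 CPM, against 1.64 to 7.08 CPM in the other 10 libraries.

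Only 6 genes were lower with LEV, and Dsp and Nupr1 were those that went back past the fold. Dsp encodes desmoplakin, which marks granule cells of the dentate gyrus in the mouse (chromosome 13, 38151294 to 38198577). It stood at 8.99 and 10.7 CPM at withdrawal, 2.52 and 1.92 CPM in PT 1 m LEV and 6.95 and 6.46 CPM in PT 1 m. The 4 libraries at 7 d held 6.27 to 8.04 CPM and naive 7.07 CPM, so the PT 1 m LEV pair was the lowest and the withdrawal pair the highest of all. Dsp was chosen for PT 1 m LEV values below PT 1 m and withdrawal, so its gap to those 2 groups follows from the choice. Its difference was 1.51 and 2.01 at withdrawal (counting errors 0.19 and 0.17) and -1.18 and -1.35 with LEV. The 12 tested genes of dentate granule cells and neurogenesis had 1 member past the fold at withdrawal, Dsp. Of all tested genes 1.2% were higher, and the list's median was 0.09 and 0.19. On the infarcted side the list's median turned to -0.06 under TMM scaling. Nupr1, a small chromatin protein induced by cell stress, stood at 19.4 and 14.5 CPM at withdrawal, 3.97 and 4.96 CPM in PT 1 m LEV and 9.12 and 12.1 CPM in PT 1 m. Its withdrawal value on the infarcted side lay 1.01 above PT 1 m. Mir5125 and the reads shared by Bc1 and LTO1 lay in between. Under TMM scaling Nupr1, Bc1 and LTO1 missed the fold with LEV. With 5 CPM added before the log in place of 1, Dsp (-0.67 and -0.73) and Nupr1 (-0.65 and -0.78) missed it with LEV. Both then missed it at withdrawal as well, Dsp at 0.9 and 1.19 and Nupr1 at 1.44 and 0.97.

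Rny1, a small cytoplasmic Y RNA, showed another pattern. It stood at 0.327 and 0.475 CPM at withdrawal, 0.315 and 0.179 CPM in PT 1 m LEV and 21.1 and 12.8 CPM in PT 1 m. In naive it had 11.5 CPM, and in the 4 libraries at 7 d 0 to 0.810 CPM. It was therefore high in the 3 libraries of naive and PT 1 m and near 0 in the 8 others, with and without LEV. Whether those 3 libraries share a preparation is unknown.

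Some histone, respiratory chain and ribosomal protein genes stood lower at withdrawal. Of the 11 tested replication-dependent histone genes of the fixed list, 5 were past the fold, all lower (1.77% of all tested genes were lower), and the list's median was -1.02 and -0.97, beside 0.13 and 0.09 over all genes. H4c9, a histone H4 gene, stood at 6.92 and 5.40 CPM at withdrawal, 35.7 and 33.6 CPM in PT 1 m LEV and 14.9 and 15.9 CPM in PT 1 m. With LEV the histone list's median had been 0.41 and 0.35, with 1 gene past the fold. Of the 21 tested subunits of the respiratory chain and ATP synthase, 4 were past the fold, all lower: Atp5e, Cox7c, Ndufa2 and Atp5k, beside the same 1.77% of all tested genes, and the list's median was -0.42 on both sides. Atp5e, a small subunit of ATP synthase, stood at 198 and 180 CPM at withdrawal, 754 and 697 CPM in PT 1 m LEV and 416 and 441 CPM in PT 1 m. The 4 libraries at 7 d held 171 to 187 CPM, overlapping withdrawal, and naive held 371 CPM, below PT 1 m. Its difference was -1.93 and -1.95 at withdrawal and 0.86 and 0.66 with LEV.

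Of the 21 ribosomal proteins of the fixed list, 3 were past the fold downward (Rpl22, Rpl38 and Rps12) and 1 upward (Rps6). Of all tested genes 1.77% were lower and 1.2% higher, and the list's median was -0.19 and -0.34. Rpl22 and Rpl38 missed the fold under quantile normalization. Rps6, the ribosomal protein phosphorylated by S6 kinase, stood at 330 and 281 CPM at withdrawal, 121 and 132 CPM in PT 1 m LEV and 205 and 219 CPM in PT 1 m, opposite to the other 3, and it missed the fold under TMM scaling. At 7 d Rps6 had 385 to 449 CPM. Rps21 stood at 330 and 277 CPM at withdrawal, 1539 and 1361 CPM in PT 1 m LEV and 950 and 857 CPM in PT 1 m, and the same reads were counted for Mir3091.

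Whole gene families, chosen after their values were seen, gave like counts. Of 56 histone cluster genes, 15 were past the fold downward at withdrawal (26.8%) and 0 upward. Of 83 ribosomal protein genes, 17 were downward (20.5%) and 1 upward. Of 301 pseudogenes, 42 were downward (14.0%) and 1 upward, whereas 13672 protein-coding genes had 198 downward (1.45%) and 184 upward (1.35%). These families stayed lower under each of the 3 other scalings, with 16 to 20 histone, 11 to 24 ribosomal protein and 46 to 48 pseudogene calls downward. The pseudogenes of ribosomal proteins were among the largest differences. Rpl21-ps15 stood at 4.91 and 3.50 CPM at withdrawal, 41.1 and 37.3 CPM in PT 1 m LEV and 7.40 and 7.75 CPM in PT 1 m, and 4.49 to 5.77 CPM at 7 d. Rpl30-ps10 stood at 0.981 and 0.831 CPM at withdrawal, 13.3 and 13.7 CPM in PT 1 m LEV and 2.39 and 4.02 CPM in PT 1 m. Reads of such pseudogenes can come from their near-identical parent genes, so their own level is uncertain. Pseudogenes made up 12 of the 33 genes higher with LEV (36.4%), beside 1.87% of all tested genes. The genes past the fold downward were also short. Protein-coding genes lower at withdrawal had a median span of 16496 bases, those higher 23930 bases, and all tested ones 26228 bases.

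**Figure D4:**
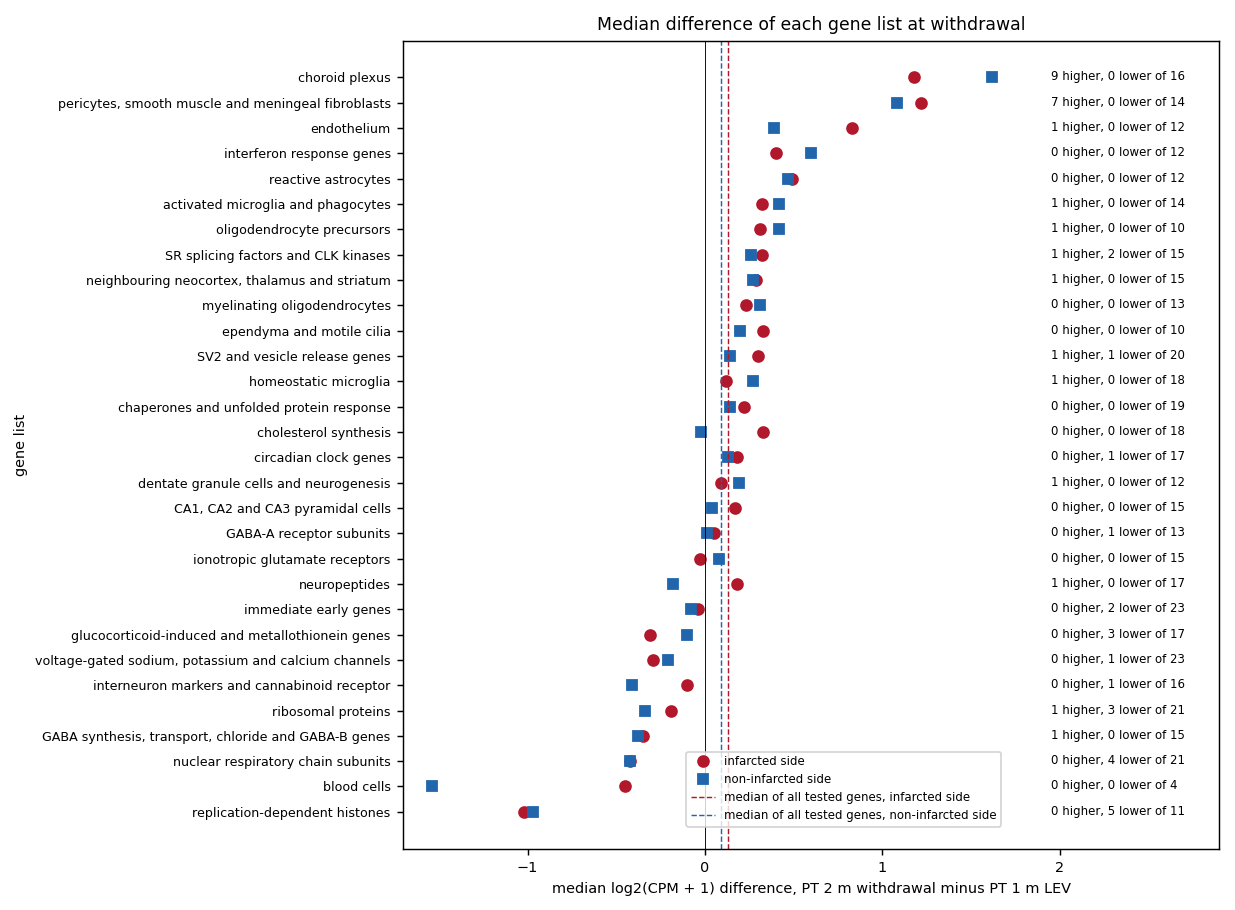
Median of log2(CPM + 1) difference at withdrawal for each of 30 gene lists on the infarcted (circles) and non-infarcted side (squares), with dashed lines at the median of all tested genes and the number of members past the fold at the right. Choroid plexus and pericyte, smooth muscle and meningeal lists lie highest, with 9 of 16 and 7 of 14 members higher. The histone list, with 5 of 11 members lower, lies lowest on the infarcted side, and the 4 tested blood cell genes, with 0 past the fold, on the non-infarcted side.

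Genes of the choroid plexus and of the vessel wall and meninges were the groups with most members higher at withdrawal than in PT 1 m LEV. Of 16 choroid plexus genes, 9 were past the fold, all higher, beside 1.2% of all tested genes, with a median of 1.18 and 1.62. Between withdrawal and PT 1 m only 1 of the 16 was past the fold, upward, beside 0.218% of all tested genes. The list's median was then 3.27 and -0.13. Ttr, the thyroid hormone carrier made by the choroid plexus, stood at 3872 and 1211 CPM at withdrawal, 1709 and 80.7 CPM in PT 1 m LEV and 36.2 and 1372 CPM in PT 1 m. Its LEV difference was 5.52 on the infarcted side, where PT 1 m was the low library, and -4.07 on the other, where PT 1 m LEV was. Enpp2, the secreted enzyme autotaxin, stood at 716 and 279 CPM at withdrawal, 187 and 66.4 CPM in PT 1 m LEV and 62.2 and 135 CPM in PT 1 m. The 4 libraries at 7 d held 395 to 461 CPM and naive 291 CPM. The part of the choroid plexus left on each piece of tissue in these differences was not tested.

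Of 14 genes of pericytes, smooth muscle and meningeal fibroblasts, 7 were past the fold, all higher, beside the same 1.2% of all tested genes, with a median of 1.22 and 1.08. Between withdrawal and PT 1 m 0 of the 14 were past the fold, and the list's median was 1.07 and 0.18. Col1a1, a fibrillar collagen chain, stood at 31.7 and 32.8 CPM at withdrawal, 14.2 and 7.02 CPM in PT 1 m LEV and 15.9 and 17.2 CPM in PT 1 m. Acta2, the actin of smooth muscle, stood at 20.0 and 27.8 CPM at withdrawal, 7.74 and 8.00 CPM in PT 1 m LEV and 12.03 and 22.5 CPM in PT 1 m. With LEV the medians of this list were 0.17 and -1.05, so the PT 1 m LEV library of the non-infarcted side was low in it as in choroid plexus genes. The 5 meningeal markers summed to 242.7 and 159.1 CPM at withdrawal, 129.8 and 100.3 CPM in PT 1 m LEV and 102.3 and 152.6 CPM in PT 1 m, and none was at 0. The share of meninges in the list's difference was not tested.

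Among glia and vessels, single members passed the fold, beside 1.2% of all tested genes higher and 1.77% lower. Cx3cr1, the fractalkine receptor of microglia, stood at 35.7 and 32.2 CPM at withdrawal, 16.0 and 13.3 CPM in PT 1 m LEV and 16.96 and 14.5 CPM in PT 1 m. It was the only 1 of 18 homeostatic microglia genes past the fold, and it missed the fold under TMM scaling (0.97 on the infarcted side). Cd74, the invariant chain of MHC class II, was the only 1 of 14 activated microglia and phagocyte genes, at 20.8 and 12.2 CPM at withdrawal, 5.41 and 2.19 CPM in PT 1 m LEV and 7.32 and 7.82 CPM in PT 1 m. Olig2, a transcription factor of the oligodendrocyte lineage, was the only 1 of 10 precursor genes, at 36.0 and 30.4 CPM at withdrawal, 13.5 and 12.7 CPM in PT 1 m LEV and 13.5 and 16.3 CPM in PT 1 m. Slco1a4, an organic anion transporter of brain endothelium, was the only 1 of 12 endothelial genes, and it too missed the fold under TMM scaling. Of the 12 reactive astrocyte, 12 interferon response and 13 myelin genes, 0 were past the fold, with medians of 0.49 and 0.47, 0.40 and 0.60, and 0.23 and 0.31. Gfap, the astrocyte intermediate filament, stood at 518 and 442 CPM at withdrawal, 310 and 272 CPM in PT 1 m LEV and 405 and 282 CPM in PT 1 m.

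Most genes of inhibitory and excitatory transmission stayed under the fold at withdrawal, as did most tested genes, of which 2.97% were past it. Of 15 genes of GABA synthesis, transport and chloride balance only Slc6a13, a GABA transporter found in the meninges, was past it, upward, and it missed the fold under TMM scaling. Of 15 ionotropic glutamate receptor genes 0 were past it. Of 23 immediate early genes 2 were past it, both lower: Nptx2, a secreted pentraxin that clusters AMPA receptors, and Homer1, a scaffold of the postsynaptic density. Nptx2 stood at 8.07 and 7.59 CPM at withdrawal, 20.96 and 21.1 CPM in PT 1 m LEV and 12.1 and 10.8 CPM in PT 1 m. Of the 20 SV2 and vesicle release genes, Stx1a of the release machinery was higher and Syn1, which tethers vesicles, was lower. Stx1a missed the fold under TMM scaling. Sv2a, the drug's binding partner, stood at 147 and 145 CPM at withdrawal, 121 and 150 CPM in PT 1 m LEV and 156 and 140 CPM in PT 1 m, with overlapping groups. Of 15 splicing factors of the SR family and their CLK kinases, Clk2 and Srsf6 were lower and Srsf3 higher. Clk2 stood at 13.1 and 13.6 CPM at withdrawal, 61.8 and 51.8 CPM in PT 1 m LEV and 42.5 and 35.7 CPM in PT 1 m.

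Some genes past the fold at withdrawal had differed little with LEV. Of the 477, 160 differed by less than 0.5 between PT 1 m LEV and PT 1 m on both sides, 71 of them higher and 89 lower at withdrawal. Another 174 had differed by at least 0.5 the other way with LEV on both sides. They were 36 of the higher and 138 of the lower genes, and the remaining 143 had other LEV differences. Of all tested genes, 289 were higher and 214 lower by at least 0.5 with LEV on both sides. The PT 1 m LEV libraries enter both differences, which favours the opposite sign in the 174. The share of all tested genes under 0.5 on both sides was not counted, so the 160 cannot be read as many or few. Time after PT, the drug's history and the making of the libraries cannot be told apart in the 160, since 1 pair of libraries carries all of them. In 66 of the 160 (28 higher, 38 lower), all 4 libraries at 7 d lay nearer to the withdrawal pair than to the 4 libraries at 1 m. In 32 of them (8 higher, 24 lower) none did, and 62 were mixed. The naive library lay nearer to withdrawal in 5 of the 160. Nearness was not counted over all tested genes, so these counts do not set the 160 apart from other genes.

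Clip3, a CAP-Gly protein of microtubules and the trans-Golgi network, stood at 107 and 131 CPM at withdrawal, 31.4 and 34.3 CPM in PT 1 m LEV and 35.6 and 34.2 CPM in PT 1 m (chromosome 7, 30291728 to 30308367). At 7 d it stood at 68.8 to 86.5 CPM, between the 2 levels, and in naive at 33.9 CPM. Eif1, a factor of start codon choice in translation, stood at 139 and 143 CPM at withdrawal, 50.2 and 56.1 CPM in PT 1 m LEV and 52.5 and 58.5 CPM in PT 1 m. Its 4 libraries at 7 d held 129 to 152 CPM, overlapping withdrawal, and naive held 54.1 CPM, within the range at 1 m. Rims4, a short member of the RIM family, stood at 13.4 and 16.7 CPM at withdrawal, 3.21 and 3.35 CPM in PT 1 m LEV and 3.44 and 3.30 CPM in PT 1 m, with 7.40 to 9.31 CPM at 7 d and 2.71 CPM in naive, below all others. Ndufs1, a core subunit of complex I, stood at 170 and 168 CPM at withdrawal, 64.1 and 71.3 CPM in PT 1 m LEV and 70.8 and 72.0 CPM in PT 1 m. At 7 d it had 119.9 to 134 CPM, between the 2 levels as in Rims4, and in naive 78.0 CPM, above the range at 1 m. Its sister subunit Ndufa2 was lower, at 301 and 283 CPM at withdrawal, 788 and 738 CPM in PT 1 m LEV and 593 and 566 CPM in PT 1 m. In Col5a2, a collagen chain, the withdrawal pair (11.4 and 12.7 CPM) stood above all 9 other libraries, which held 3.02 to 6.09 CPM.

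Pfdn2, a subunit of the chaperone prefoldin, stood at 75.2 and 88.6 CPM at withdrawal, 343 and 363 CPM in PT 1 m LEV and 350 and 335 CPM in PT 1 m (chromosome 1, 171345670 to 171359254). At 7 d it stood at 227 to 263 CPM and in naive at 319 CPM, so withdrawal was far below all 9 other libraries. Its difference was -2.17 and -2.02 at withdrawal (counting error 0.04 each) and -0.03 and 0.12 with LEV. Uso1, a vesicle tether of the Golgi, was like it, at 27.5 and 29.0 CPM at withdrawal against 56.7 to 111 CPM in the 9 other libraries. Stxbp3, a partner of syntaxins in membrane fusion, stood at 5.50 and 4.69 CPM at withdrawal, 24.0 and 19.9 CPM in PT 1 m LEV and 24.3 and 22.0 CPM in PT 1 m. At 7 d it had 4.67 to 9.68 CPM and in naive 23.1 CPM, so the libraries at 7 d overlapped withdrawal and naive lay with those at 1 m. Mir9-3, a host locus of the neuronal miRNA miR-9, was low at withdrawal (1.962 and 2.73 CPM), at 7 d (2.995 to 3.68 CPM) and in naive (3.29 CPM), and high in PT 1 m LEV (10.7 and 10.95 CPM) and PT 1 m (12.9 and 12.8 CPM). Syngr1, a synaptic vesicle protein, stood at 36.9 and 34.2 CPM at withdrawal, 97.3 and 100.3 CPM in PT 1 m LEV and 121 and 119 CPM in PT 1 m.

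**Figure D5:**
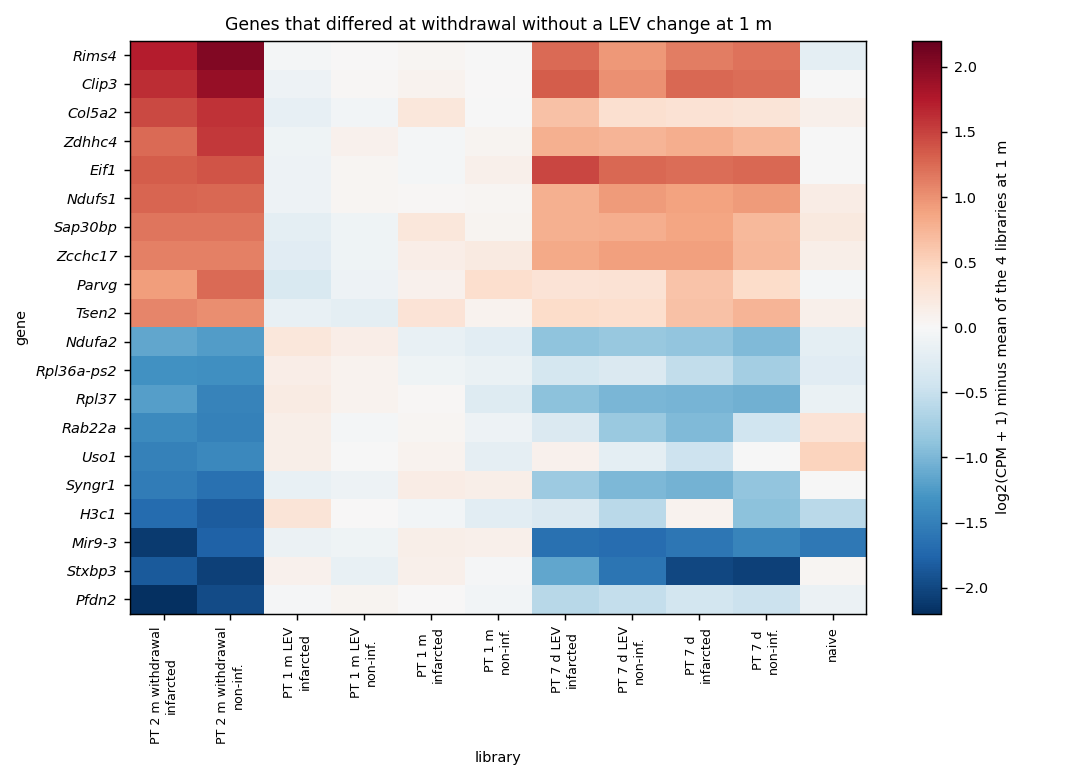
Level of 20 named genes that differed at withdrawal without a LEV difference at 1 m, as log2(CPM + 1) minus the mean of the 4 libraries at 1 m (colour), in the 11 libraries. Red is higher and blue lower. The 2 withdrawal libraries at the left are furthest from the 4 at 1 m in most rows, the 4 libraries at 7 d share the direction for Clip3, Rims4, Eif1 and Stxbp3, and naive is near the libraries at 1 m for most genes but not for Mir9-3.

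Among genes higher at withdrawal outside these groups, Selenop, the selenium transport protein of plasma and glia, stood at 383 and 418 CPM at withdrawal, 106 and 93.0 CPM in PT 1 m LEV and 126 and 138 CPM in PT 1 m. Its withdrawal libraries were above all 9 others, the next being PT 7 d at 212 CPM. Id4, an inhibitor of basic helix-loop-helix factors in neural progenitors and astrocytes, stood at 192 and 174 CPM at withdrawal, 51.9 and 53.6 CPM in PT 1 m LEV and 82.2 and 74.5 CPM in PT 1 m. Spop, a substrate adaptor of a ubiquitin ligase, stood at 96.0 and 137 CPM at withdrawal, 29.8 and 37.1 CPM in PT 1 m LEV and 54.0 and 53.7 CPM in PT 1 m. In Id4 and Spop, PT 1 m LEV lay below PT 1 m by less than the fold. Of the 192 higher genes 25 were past the fold against PT 1 m as well, and of the 285 lower genes 46.

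Fits with a term for side, in which the 2 sides stand as the only replicates, called far more genes. By limma over the 10 PT libraries, 7990 genes differed at withdrawal (49.8% of those tested, Benjamini-Hochberg adjusted p under 0.05) and 2501 with LEV at 1 m (15.6%). Limma over the 6 libraries at 1 m and 2 m called 48.9% and 13.7%, edgeR 48.9% and 14.8%, and DESeq2 38.1% and 11.2%. Of the 477 genes past the fold at withdrawal, limma over 10 libraries called 471, edgeR 468 and DESeq2 450. Of the 39 with LEV, limma over 10 libraries called 35 and edgeR 34, but DESeq2 only 14 (35.9%). These p-values measure only how far the 2 sides of a condition vary around a common difference, which may be technical and may come from the same animals, and not the spread between mice.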

How the data were processed

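The values are gene-level CPM, deposited by the authors as reads scaled to each library's total, in 11 CAGE libraries of mouse hippocampus. Per the labels' protocols, cDNA was made from total RNA with random primers and selected by cap-trapping. GRCm38, HISAT2 2.0.5, BWA 0.7.17 and DESeq2 1.20.0 are named in the submitters' processing notes without roles. The annotation, the counting rule and any use of strand are unknown. Every CPM value came out as a whole number of reads (100% within 0.001), which gave the library totals of 13382623 to 22377376 reads.

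Genes with a mean of at least 1 CPM over the 11 libraries were kept (16057 of 22377), and log2(CPM + 1) was subtracted side by side with Python 3.11.15 and pandas 2.3.3. Counting errors are Poisson errors of the reads of the libraries in a difference and cover counting error only. There was 1 library for each condition and side, so the spread between mice could not be tested. Fits with a side term, which test conditions against the spread between sides only, used limma 3.58.1, and edgeR 4.0.16 (quasi-likelihood) and DESeq2 1.42.0 on the recovered reads, in R 4.3.3, and were tested on simulated data. Gene positions came from GENCODE M21, matched by identifier without version (22335 genes), and promoters from RefSeq. There were 624 entries that shared all their reads with another entry.

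The members, the 30 gene lists and the rules were chosen with earlier results of these data known. Named genes were up to 15 per direction at withdrawal and among genes that went back, and up to 10 per direction with LEV or without a LEV difference, by the smaller of the 2 sides' differences, with a mean of at least 5 CPM for withdrawal and LEV. Up to 4 members per list were also named, and Sv2a, Gfap and Ttr. Fos, Fkbp5, Sgk1, Npas4, Rny1 and the other members of small counts were named after their values were seen. Other pseudocounts, filters, scalings, folds and single sides were tried as alternatives. Some genes that met these rules are not reported here.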

Additional observations from a re-analysis of the deposited data

Results flagged for a closer look

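The LEV difference at 1 m had opposite signs on the 2 sides, past a log2 of 1 on each, in 14 members of the gene lists. The share of all tested genes with such a difference is not given here. These differences between sides were not tested. Values are PT 1 m LEV minus PT 1 m on the infarcted and then the non-infarcted side. Ttr differed by 5.52 and -4.07, F5 by 3.45 and -2.05, Cox8b by 3.08 and -1.07, and Ecrg4 by 2.45 and -2.0. Folr1 differed by 2.36 and -2.2, Kcne2 by 2.36 and -1.88, Clic6 by 2.21 and -1.42, and Slc4a5 by 2.19 and -1.75. Wfdc2 differed by 2.12 and -1.83, Mfrp by 2.04 and -1.81, Enpp2 by 1.57 and -1.01, and Otx2 by 1.56 and -1.33. Kcnj13 differed by 1.14 and -2.13, and Aqp1 by 1.01 and -1.23. All but Cox8b are in the choroid plexus list, whose 7 marker genes summed to 1778 and 102.6 CPM in PT 1 m LEV and to 55.74 and 1428 CPM in PT 1 m.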

How the results depend on the processing

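The labels carry no replicate numbers, and libraries were paired by side alone. The counts below are of genes past the fold at withdrawal (477), with LEV (39), going back (27), without a LEV difference (160), and going back across sides (104). A pseudocount of 5 CPM gave 235, 9, 8, 82 and 29, and a pseudocount of 0.5 CPM gave 573, 49, 34, 182 and 157. A log2 of 0.5 gave 3438, 503, 360, 2316 and 1259, and a log2 of 1.5 gave 80, 7, 5, 12 and 13. The infarcted side alone, which leaves out the PT 1 m LEV library low in choroid plexus RNA, gave 1137, 148, 61 and 674 for the first 4. The non-infarcted side alone, which leaves out the low PT 1 m library, gave 667, 145, 86 and 334. Asking 1 side in place of 2 raises counts by construction, and so does a lower fold. With a side term, limma over 10 libraries called 7990 genes at withdrawal and 2501 with LEV, limma over 6 libraries 7845 and 2200, edgeR 7849 and 2381, and DESeq2 6118 and 1804, by another rule than the fold. DESeq2 called 14 of the 39 genes past the fold with LEV, and limma over 10 libraries 35. Filters, 3 other scalings and counting shared reads once (chosen after seeing the data) kept the 5 counts within 1.5 times.

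The share of higher genes at withdrawal was 40.3%, against 21.6% with TMM, 23.9% with median-of-ratios factors and 29.9% with quantile normalization. More were higher than lower at a log2 of 0.5 (60.6%), on the infarcted side alone (54.8%) and by limma over 10 libraries (60.8%), but not by edgeR (47.1%) or DESeq2 (44.9%). With TMM, 396 of the 477 and 36 of the 39 genes were called the same way, and 0 the other way. Of 1870 alternative values of named genes, 1439 stayed within counting error. No named gene past the fold changed sign, but a difference of 1 or more leaves little room for that. TMM moved the withdrawal median on the infarcted side only from 0.13 to 0.0. The absence of sign changes, and of genes called the other way with TMM, therefore says little. Of 600 alternative list medians 26 changed sign, all of lists with a median between -0.07 and 0.15. With 1 library per condition and side, the spread between mice is not measured.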
